A study of Homo sapiens with 6 samples.

Results

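The 36 genes described here encode the glucose and lactate transporters of OVCAR8 cells, the enzymes of glycolysis, the lactate and pyruvate dehydrogenases with the pyruvate dehydrogenase kinases, and enzymes of the pentose phosphate pathway. They were taken by gene symbol from the authors' merged count table, where all 36 were found, out of 58037 gene IDs counted in each library. All 36 had enough reads to be tested. OVCAR8 is an established human ovarian carcinoma cell line. The cells were plated in medium with 10% serum and kept without serum for 16 hours. The 3 relaxin-2 libraries (numbered 1 to 3) came from cells then given 50 ng/mL of recombinant human relaxin-2 (RLN2), a peptide hormone of the insulin superfamily, for 8 hours, and the 3 untreated libraries (numbered 2 to 4) came from cells left without it. The labels do not say whether replicates were separate cultures, and p-values cover no more than the variation among these 6 libraries, part of which may be technical.

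Glycolysis splits glucose into pyruvate, and the reactions fall into a hexose phase, which spends ATP, and a triose phase, which returns it. Pyruvate is then reduced to lactate by lactate dehydrogenase and exported, or enters the mitochondrion, where the pyruvate dehydrogenase complex turns it into acetyl-CoA unless a pyruvate dehydrogenase kinase switches the complex off. The pentose phosphate pathway branches off at glucose 6-phosphate and supplies NADPH and ribose. Many carcinoma lines make lactate from glucose even with oxygen present, and most steps have several isozymes, whose balance differs between tissues.

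The libraries held 11939148 to 21926212 gene reads in the relaxin-2 group and 17175308 to 22426768 in the untreated group, and the 36 genes took 1.40% to 1.502% of them after relaxin-2 and 1.05% to 1.42% without it. Keratins KRT7, KRT8 and KRT18 and the lineage factor PAX8 were present in every library, while the ovarian carcinoma antigen MUC16 and KRT19 were at or near 0. Fibroblast, endothelial, mesothelial and leukocyte markers summed to at most 4.68 CPM (read counts scaled to the size of the library) per list in any library, and the fibroblast gene DCN had 0 reads. CDH1, from the same list as the keratins, was also low, at 0.818 to 1.31 CPM after relaxin-2 and 0.630 to 1.44 CPM without it. Untreated library 2 stood apart from the others in base composition. Over all tested genes its log2 level relative to the gene's mean fell by 0.458 for each 10 percentage points of GC content in the transcript, whereas the other 5 libraries had slopes of -0.043 to 0.239. Relaxin-2 library 2 also stood apart, with 26.96% of its reads mapping to several places, against 5.31% to 6.19% in the other 5, and 5.37% of its gene reads mitochondrial, against 0.860% to 1.42%. Untreated library 2 had the smallest shares of 7SK and 7SL RNA, at 0.263% against 0.676% to 0.926%, and of histone reads, at 0.210% against 0.339% to 0.440%. The part of these shares in the results was not tested.

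The comparison asked whether transcripts of glucose use differed after 8 hours of relaxin-2. None of the 36 genes passed the threshold of an adjusted p under 0.05 (edgeR quasi-likelihood test, Benjamini-Hochberg adjustment over 16740 genes, smallest adjusted p = 0.408), and over all tested genes 0 passed, or 0%. DESeq2 also called 0 genes, and at an unadjusted p under 0.05 there were 1811 genes by edgeR, or 10.8%, and 1677 by DESeq2. At an unadjusted p under 0.05, 4 of the 36 were higher after relaxin-2 (PDK2, PGD, TKT and HK1), against 6.3% of all tested genes, and 1 was lower (PDK1), against 4.52%. The relaxin-2 libraries all lay above the untreated ones in 9 of the 36, against 10.8% of all tested genes, and all below them in 2, against 10.5%, while 25 overlapped. A positive fitted difference was found in 27, against 47.8% of all tested genes, and a negative one in 9, and the median log2 fold change of the 36 was 0.22, beside -0.015 over all tested genes. Without untreated library 2 that median was 0.13, with the numbers of positive and negative differences again 27 and 9. With offsets that remove each library's trend on GC content and transcript length it was 0.074, with 28 positive and 8 negative. When 1 surrogate variable was added to the model the median was 0.026, and 22 were positive and 14 negative. In bulk RNA a lower level in each cell and a smaller share of cells with the transcript cannot be told apart.

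**Figure D1:**
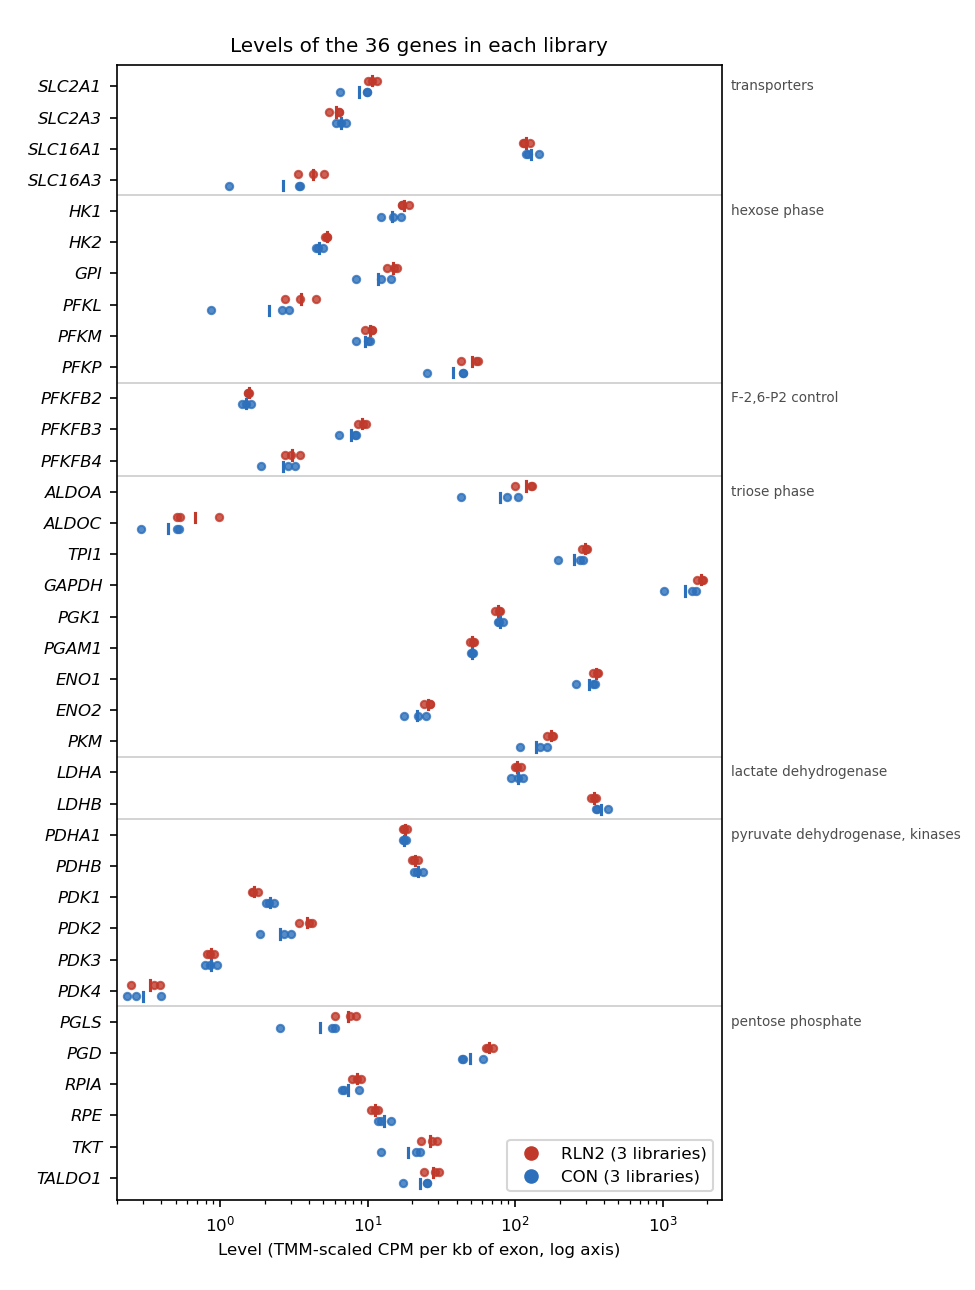
Level of each of the 36 genes in every library, as CPM per kilobase of exon on a log axis, with relaxin-2 libraries (RLN2, red) above untreated ones (CON, blue), a dot per library and a tick at each group's mean. GAPDH was the most abundant and PDK4 the least, and the single low blue dot of genes such as SLC16A3, PFKL and ALDOA is untreated library 2.

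Set on a scale that allows comparison between genes, CPM per kilobase of exon, the 36 spanned a wide range. GAPDH, the triose phosphate dehydrogenase, averaged 1809 ± 89.9 in relaxin-2 libraries and 1422 ± 358 in untreated ones (SD, n = 3 each), and its lowest library lay above the highest library of every other member. LDHB, ENO1 and TPI1 came next, with means over the 6 libraries of 359, 334 and 275 CPM per kilobase, and the ranges of LDHB and ENO1 overlapped, as did those of ENO1 and TPI1. At the low end were PDK3 (0.862), ALDOC (0.559) and PDK4 (0.317), the last with 13 to 40 reads in a library. Exon length here is the union of all annotated exons, so the value of a gene with many rarely used exons is understated.

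Entry of glucose is served by SLC2A1 and SLC2A3, the glucose transporters GLUT1 and GLUT3. SLC2A1 had 47.5, 54.4 and 50.8 CPM in relaxin-2 libraries 1, 2 and 3, against 30.7, 47.0 and 46.6 CPM in untreated libraries 2, 3 and 4. The groups did not overlap, but relaxin-2 library 1 and untreated library 3 lay close together, and untreated library 2 was far below the rest. Its log2 fold change was 0.30 ± 0.16 (SE, edgeR adjusted p = 0.411), and it was 0.12 without untreated library 2, 0.0071 with the GC and length offsets and 0.00049 with 1 surrogate variable. SLC2A3 had 33.6 to 39.2 CPM after relaxin-2 and 37.9 to 44.1 CPM without it, with overlapping groups. Of the CPM per kilobase of this pair, SLC2A1 made up 64.0% ± 3.46 after relaxin-2 and 56.4% ± 4.49 without it (SD, n = 3 each), and every relaxin-2 library lay above every untreated one. Without untreated library 2 the mean difference was 4.98 percentage points, against 7.53 with it.

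Lactate leaves the cell through SLC16A1 and SLC16A3, the monocarboxylate transporters MCT1 and MCT4, MCT4 being known as the transporter of strongly glycolytic cells. SLC16A1 dominated, with 602 to 667 CPM after relaxin-2 and 624 to 773 CPM without it. SLC16A3 had 30.2, 45.8 and 38.2 CPM in relaxin-2 libraries 1, 2 and 3, against 10.3, 30.7 and 31.1 CPM in untreated libraries 2, 3 and 4. Relaxin-2 library 1 thus lay below 2 of the untreated libraries, so the groups overlapped. Per kilobase, SLC16A3 made up 3.49% ± 0.853 of the pair after relaxin-2 and 2.12% ± 1.16 without it, or 2.79% in the untreated group without library 2. SLC16A7, outside the described list and not in this share, had 40.9 to 46.2 CPM after relaxin-2 and 42.2 to 55.5 CPM without it.

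In the hexose phase all 6 genes had a positive fitted difference, and 1 of them, HK1, had an unadjusted p under 0.05. HK1 (GRCh38 chr10:69269984-69401884), the widely expressed hexokinase that traps glucose in the cell, had 107, 108 and 119 CPM after relaxin-2, against 77.3, 93.2 and 106 CPM in untreated libraries 2, 3 and 4. The groups did not overlap, although untreated library 4 came close to relaxin-2 libraries 1 and 2. Its log2 fold change was 0.28 ± 0.12 (edgeR adjusted p = 0.408), and it was 0.165 without untreated library 2, 0.27 with the offsets and 0.10 with 1 surrogate variable. HK2, the inducible hexokinase of many tumours, had 31.3, 32.2 and 32.3 CPM after relaxin-2, against 26.96, 30.4 and 28.1 CPM without it, a log2 fold change of 0.17 ± 0.091 (edgeR adjusted p = 0.411) that was 0.13, 0.085 and 0.11 in the same 3 fits. Per kilobase HK1 held 77.1% ± 0.871 of the hexokinase pair after relaxin-2 and 75.5% ± 2.63 without it, and the groups overlapped. HKDC1, outside the described list and not in this share, had 85.4 to 89.3 CPM after relaxin-2 and 66.7 to 83.8 CPM without it. GPI, which turns glucose 6-phosphate into fructose 6-phosphate, had 143, 168 and 161 CPM after relaxin-2, against 89.2, 131 and 154 CPM without it (log2 fold change 0.34 ± 0.18, edgeR adjusted p = 0.408). It was 0.14 without untreated library 2, 0.021 with the GC and length offsets and 0.00076 with 1 surrogate variable.

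Phosphofructokinase is the committed step of glycolysis and has liver (PFKL), muscle (PFKM) and platelet (PFKP) isozymes. PFKP was the main one, with 208, 271 and 262 CPM after relaxin-2, against 121, 216 and 214 CPM without it, a log2 fold change of 0.43 ± 0.21 (edgeR adjusted p = 0.408). It was 0.20 without untreated library 2, 0.14 with the offsets and 0.011 with 1 surrogate variable. PFKL had 24.4, 39.6 and 31.0 CPM after relaxin-2, against 7.74, 23.4 and 26.1 CPM in untreated libraries 2, 3 and 4. This was the largest fitted difference of the 36, at 0.73 ± 0.40 (edgeR adjusted p = 0.411), but the groups overlapped, and the value was 0.34 without untreated library 2, 0.20 with the offsets and -0.027 with 1 surrogate variable. PFKM had 70.6 to 78.6 CPM after relaxin-2 and 61.4 to 75.99 CPM without it. Of the CPM per kilobase of the family, PFKP made up 78.5% ± 0.783 after relaxin-2 and 75.9% ± 2.57 without it, and PFKM 16.0% ± 1.24 and 19.995% ± 3.86, with every relaxin-2 library below every untreated one for PFKM. That separation was narrow, at 17.4% in the highest relaxin-2 library against 17.5% in the lowest untreated one, and untreated library 2 stood at 24.4%. Without it the mean difference in the PFKM share was -1.74 percentage points, against -3.97 with it, and that of PFKP 1.15 against 2.60.

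Fructose 2,6-bisphosphate, the strongest known activator of phosphofructokinase, is made and broken down by the bifunctional PFKFB enzymes, of which PFKFB3 has mostly kinase activity. PFKFB3 was the main isozyme, at 66.5% ± 1.65 of the family's CPM per kilobase after relaxin-2 and 64.7% ± 0.719 without it. It had 52.6, 56.5 and 59.4 CPM after relaxin-2, against 39.1, 51.04 and 50.3 CPM without it, and the groups did not overlap. Its log2 fold change was 0.26 ± 0.12 (edgeR adjusted p = 0.408), and it was 0.15 without untreated library 2, -0.11 with the GC and length offsets and 0.077 with 1 surrogate variable. PFKFB2 had 15.9 to 16.0 CPM after relaxin-2 and 14.4 to 16.4 CPM without it, and PFKFB4 16.7 to 21.2 and 11.6 to 19.8 CPM.

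**Figure D2:**
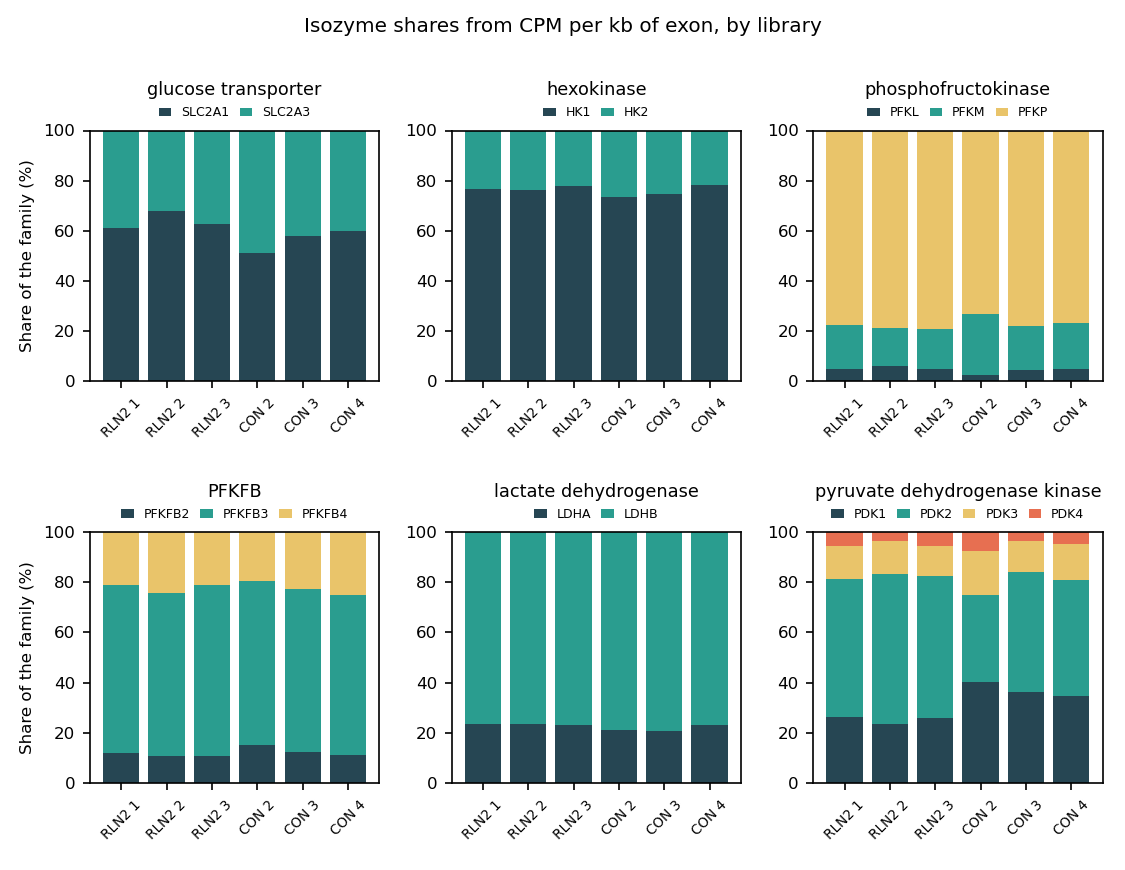
Share of each isozyme in its family, in percent of the family's CPM per kilobase of exon, as 1 stacked bar per library with the relaxin-2 libraries (RLN2) on the left and the untreated ones (CON) on the right. Families hold only members of the described list, so HKDC1 is left out. HK1 held 76.4% to 78.04% of the hexokinase pair in relaxin-2 libraries and 73.4% to 78.5% in untreated ones, while PDK1 held 23.7% to 26.3% of the kinase family in relaxin-2 libraries and 34.8% to 40.1% in untreated ones.

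In the triose phase 8 of the 9 genes had a positive fitted difference and none had an unadjusted p under 0.05. GAPDH, often used as a loading reference, had 5085, 5584 and 5504 CPM after relaxin-2, against 3021, 4691 and 5008 CPM in untreated libraries 2, 3 and 4. The groups did not overlap, but untreated library 4 and relaxin-2 library 1 were almost level. Its log2 fold change was 0.35 ± 0.18 (edgeR adjusted p = 0.408), and it was 0.15 without untreated library 2, 0.057 with the offsets and 0.030 with 1 surrogate variable. PKM, the pyruvate kinase of most tissues and tumours, had 1405, 1516 and 1548 CPM after relaxin-2, against 916, 1258 and 1398 CPM without it (0.32 ± 0.15, edgeR adjusted p = 0.408). It was 0.17 without untreated library 2, 0.12 with the offsets and 0.064 with 1 surrogate variable. ALDOA, the main aldolase, had 390, 509 and 499.9 CPM after relaxin-2, against 167, 345 and 409 CPM without it. Its groups overlapped, and its log2 fold change of 0.60 ± 0.29 (edgeR adjusted p = 0.408) was 0.31 without untreated library 2, 0.26 with the offsets and 0.060 with 1 surrogate variable. ENO2, an enolase first known from neurons, had 103, 113 and 112 CPM after relaxin-2, against 75.8, 93.8 and 107 CPM without it (0.25 ± 0.12, edgeR adjusted p = 0.408), and it was 0.13 without untreated library 2, -0.021 with the GC and length offsets and 0.042 with 1 surrogate variable.

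The remaining triose genes overlapped between the groups. TPI1, the isomerase of the triose phosphates, had 766 to 827 CPM after relaxin-2 and 524 to 776 CPM without it, and ENO1, the main enolase, 1773 to 1913 and 1367 to 1842 CPM. PGK1, which makes the first ATP of the phase, had 399.7 to 435 CPM after relaxin-2 and 419 to 457 CPM without it. PGAM1, phosphoglycerate mutase, had 127 to 134 CPM after relaxin-2 and 129.6 to 132 CPM without it, and ALDOC was at 1.5001 to 2.87 and 0.855 to 1.54 CPM. ENO1 made up 93.2% ± 0.0667 of the enolase pair per kilobase after relaxin-2 and 93.6% ± 0.260 without it. In this share the groups did not overlap, but only narrowly, with 93.305% in the highest relaxin-2 library against 93.325% in the lowest untreated one. ALDOA made up 99.4% of the aldolase pair in both groups. Reads that fit several places were not counted, and 17 of the 36 genes have annotated pseudogene copies that can draw them away. GAPDH has 65 such copies, which held 0.404% as many reads as the gene, and PGAM1 has 13, which held 1.95%, so these levels are uncertain.

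Lactate dehydrogenase is a tetramer of LDHA and LDHB chains, of which LDHA is known to favour lactate formation and LDHB the reverse. LDHA had 675, 617 and 635 CPM in relaxin-2 libraries, against 698, 581 and 652 CPM in untreated ones. The groups overlapped, and the log2 fold change was -0.0023 ± 0.086 (edgeR adjusted p = 0.991). LDHB had 966 to 1058 CPM after relaxin-2 and 1050 to 1265 CPM without it, where untreated library 2 was the highest. Per kilobase LDHA made up 23.4% ± 0.185 of the pair after relaxin-2 and 21.5% ± 1.27 without it (SD, n = 3 each). All 3 relaxin-2 libraries lay above the untreated ones in that share, with 23.2% in the lowest relaxin-2 library against 23.0% in the highest untreated one. Without untreated library 2 the mean difference was 1.56 percentage points, against 1.85 with it.

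The pyruvate dehydrogenase subunits gave overlapping groups, and of the 4 kinases PDK1 was lower and PDK2 higher after relaxin-2 in every library. PDHA1, the catalytic alpha subunit that the kinases phosphorylate, had 78.4, 78.8 and 83.0 CPM after relaxin-2, against 77.5, 81.6 and 79.3 CPM without it (log2 fold change 0.012 ± 0.066, edgeR adjusted p = 0.930). PDHB, the beta subunit, had 94.0 to 103 CPM after relaxin-2 and 97.1 to 111 CPM without it.

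PDK1 (GRCh38 chr2:172555373-172608669), a kinase known as a hypoxia target, had the smallest p of the 36 genes. It had 24.4, 24.8 and 27.001 CPM in relaxin-2 libraries 1, 2 and 3, against 31.8, 34.4 and 30.4 CPM in untreated libraries 2, 3 and 4. Every relaxin-2 library lay below every untreated one, and untreated library 2 did not stand apart here. The log2 fold change was -0.34 ± 0.098 (edgeR adjusted p = 0.408), and -0.35 without untreated library 2. It ran from -0.39 to -0.23 over 14 alternative settings, with an unadjusted p under 0.05 in 13 of them and an adjusted p of 0.218 to 0.766. PDK2 (chr17:50094737-50112152), the most widely expressed of the kinases, had 18.8, 23.1 and 21.8 CPM after relaxin-2, against 10.2, 16.5 and 14.8 CPM without it. Again the groups did not overlap, and here untreated library 2 was the lowest. The log2 fold change was 0.62 ± 0.19 (edgeR adjusted p = 0.408), and it was 0.43 without untreated library 2, 0.31 with the GC and length offsets and 0.29 with 1 surrogate variable. Its unadjusted p was under 0.05 in all 14 alternative settings, with an adjusted p of 0.0667 to 0.766.

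The other two kinases gave overlapping groups. PDK3 had 4.06 to 4.53 CPM after relaxin-2 and 3.91 to 4.68 CPM without it, and PDK4, known to be induced by fasting, had 1.13 to 1.77 and 1.05 to 1.80 CPM. Of the family's CPM per kilobase, PDK2 made up 57.1% ± 2.48 after relaxin-2 and 42.8% ± 6.98 without it, and PDK1 25.2% ± 1.37 and 37.1% ± 2.68 (SD, n = 3 each). The groups did not overlap in either share. In untreated libraries 3 and 4 the share of PDK2 was 47.5% and 46.1%, against 34.8% in untreated library 2. The shares rest on exon lengths of 14883 bases for PDK1 and 5481 for PDK2, and in CPM alone PDK1 was above PDK2 in every library. Transcript GC content was 44.64% for PDK1 and 58.01% for PDK2, and its part in the shares was not tested.

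**Figure D3:**
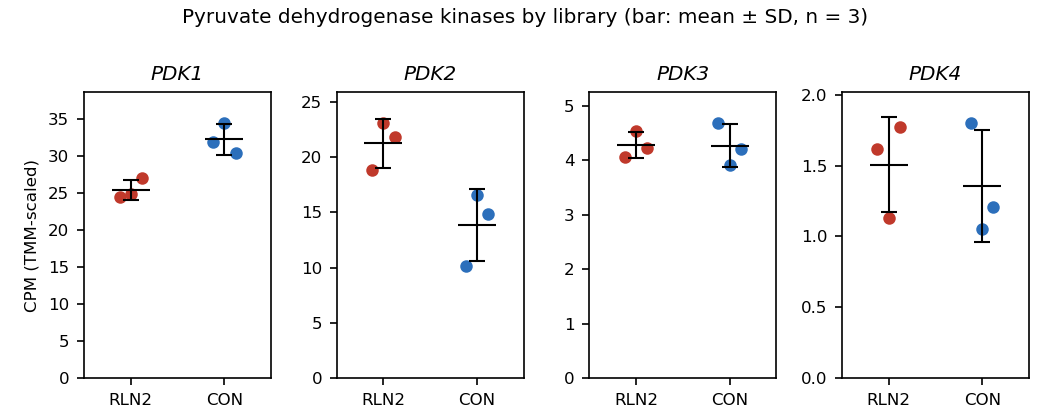
CPM of the 4 pyruvate dehydrogenase kinase genes, with relaxin-2 libraries (RLN2, red) left of untreated ones (CON, blue), a dot per library and a bar at the mean ± SD (n = 3). PDK1 lay between 24.4 and 27.001 CPM after relaxin-2 and between 30.4 and 34.4 CPM without it, PDK2 was higher in all 3 relaxin-2 libraries, and PDK3 and PDK4 overlapped.

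In the pentose phosphate pathway 5 of the 6 genes had a positive fitted difference, 2 of them with an unadjusted p under 0.05. PGD (chr1:10398592-10420144), which makes NADPH and ribulose 5-phosphate, had 188, 211 and 193 CPM after relaxin-2, against 129, 132 and 179.9 CPM in untreated libraries 2, 3 and 4. The groups did not overlap, and untreated libraries 2 and 3 were alike while library 4 was nearer to the relaxin-2 group. Its log2 fold change was 0.43 ± 0.13 (edgeR adjusted p = 0.408), and 0.34 without untreated library 2, 0.29 with the offsets and 0.26 with 1 surrogate variable. Of the named members PGD was the one that passed in any setting, with no filter on low counts (edgeR adjusted p = 0.0481), and over all 14 settings its adjusted p ran from 0.0481 to 0.766. TKT (chr3:53224707-53256052), the transketolase that links the pathway back to glycolysis, had 219, 279.7 and 259.9 CPM after relaxin-2, against 117, 202 and 216 CPM without it. Its groups did not overlap, with untreated library 4 just under relaxin-2 library 1. The log2 fold change was 0.50 ± 0.21 (edgeR adjusted p = 0.408), and it was 0.27 without untreated library 2, 0.18 with the offsets and 0.087 with 1 surrogate variable.

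The other pentose phosphate genes did not reach an unadjusted p under 0.05. TALDO1, transaldolase, had 72.1, 91.4 and 86.5 CPM after relaxin-2, against 52.3, 75.7 and 76.3 CPM without it (log2 fold change 0.29 ± 0.16, edgeR adjusted p = 0.410). It was 0.13 without untreated library 2, 0.12 with the offsets and -0.0075 with 1 surrogate variable. PGLS, the lactonase of the oxidative branch, had 17.03, 23.8 and 21.7 CPM after relaxin-2, against 7.20, 16.4 and 17.2 CPM without it (0.62 ± 0.31, edgeR adjusted p = 0.408). It was 0.30 without untreated library 2, 0.11 with the offsets and 0.044 with 1 surrogate variable. Both sets of groups overlapped, and untreated library 2 was the lowest in each. RPE, the epimerase of ribulose 5-phosphate, had 41.4, 37.3 and 39.5 CPM after relaxin-2, against 50.9, 43.7 and 41.6 CPM without it. All relaxin-2 libraries lay below the untreated ones by a narrow margin, with a log2 fold change of -0.20 ± 0.10 (edgeR adjusted p = 0.408) that was -0.11 without untreated library 2, -0.12 with the offsets and -0.051 with 1 surrogate variable. RPE has 6 annotated pseudogenes that held 18.7% as many reads as the gene, so its value is uncertain. RPIA, the isomerase, had 14.5 to 16.6 CPM after relaxin-2 and 12.3 to 16.0 CPM without it.

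The fitted differences of the 36 genes followed the GC content of their transcripts. The 18 genes above the members' median of 54.36% GC were positive in 18 of 18 cases, with a median log2 fold change of 0.34, and the 18 at or below it were positive in 9 and negative in 9, with a median of 0.0050. Across the 36 genes, Spearman's rho between GC content and the log2 fold change was 0.869, and between GC content and the deviation in untreated library 2 it was -0.917. For the deviations in relaxin-2 libraries 1, 2 and 3 it was 0.383, 0.863 and 0.772, and in untreated libraries 3 and 4 it was 0.024 and 0.497. Deviations are taken from the mean over the 6 libraries, so those of 1 library depend on the others. These points share the same 6 libraries, so rho is given as a description. Without relaxin-2 library 2 rho with the fold change was 0.799. Without untreated library 2 it was 0.635, and the medians of the GC-rich and GC-poor genes were 0.16 and 0.029. With the GC and length offsets they were 0.096 and 0.061, and rho was 0.161. Untreated library 2 was the lowest of the 6 libraries in 23 of the 36 genes, and in SLC16A3 and PFKL, the genes with the highest GC content at 65.97% and 64.37%, it lay furthest below the mean. The part of base composition in the differences was not tested beyond these values. The median GC content of the members was above the 48.71% of all tested genes.

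**Figure D4:**
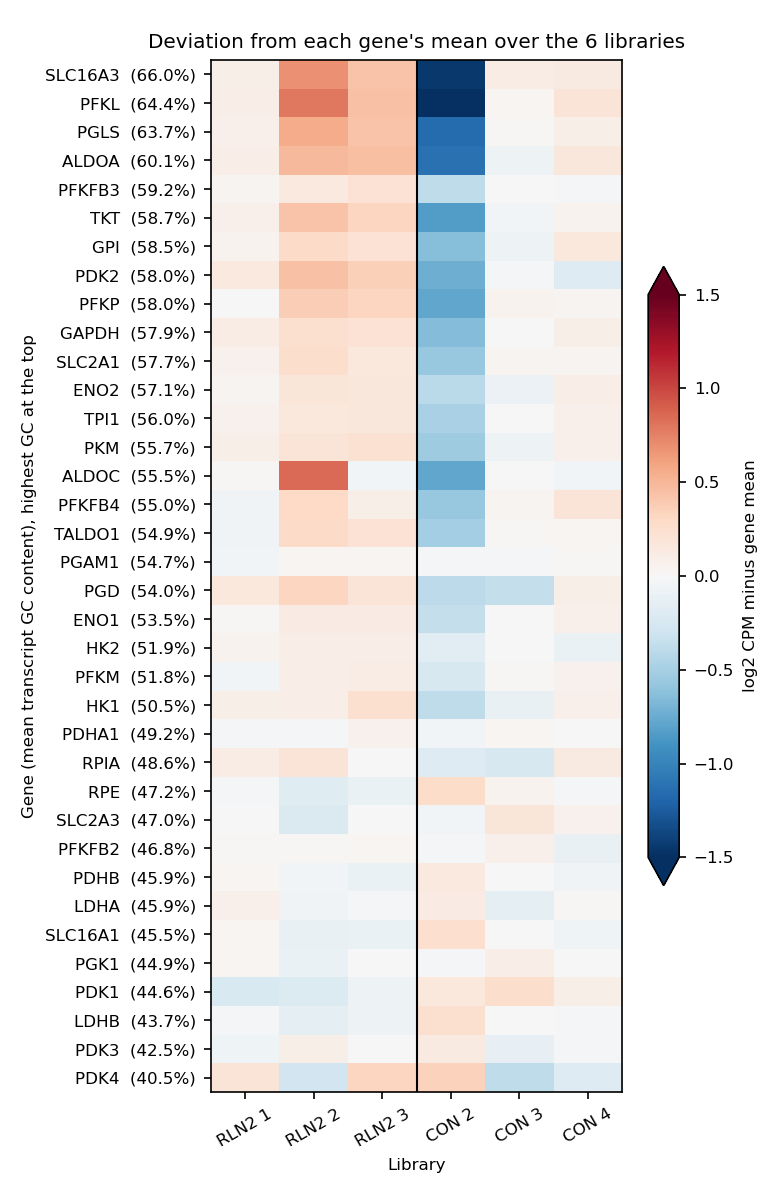
Log2 CPM of each gene in each library minus the gene's mean over the 6 libraries, with genes ordered from the highest transcript GC content (top) to the lowest, relaxin-2 libraries (RLN2) left of the line and untreated ones (CON) right of it. Untreated library 2 is far below the mean (blue) for GC-rich genes and slightly above it for several GC-poor ones, relaxin-2 library 2 mostly shows the opposite, and PDK1 is below its mean in all 3 relaxin-2 libraries.

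**Figure D5:**
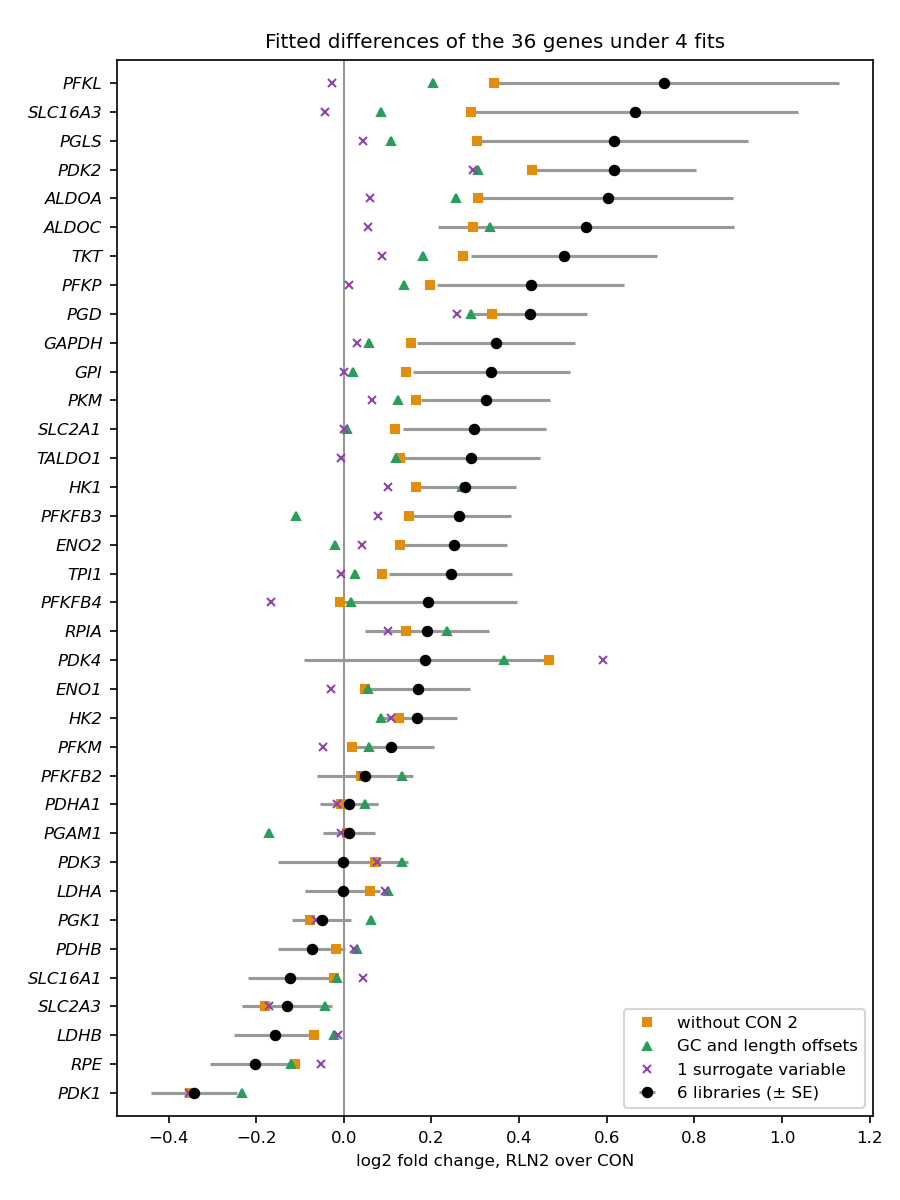
Log2 fold change of relaxin-2 over untreated for the 36 genes, from all 6 libraries (black, ± SE), without untreated library 2 (orange), with GC and length offsets (green) and with 1 surrogate variable (purple). Most positive values move toward 0 in the other fits, those of PDK4 move away from it, and PDK1 stays between -0.35 and -0.23 and PDK2 and PGD stay between 0.26 and 0.62.

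Promoters of 33 of the 36 genes were found in the RefSeq table on GRCh38.p14, as windows of 250 bases before an annotated start and 50 after it. Only the first window listed for a gene was used, and for some genes, such as GPI and PGK1, it lies inside the gene. Which start these cells used was not tested. The windows were searched on both strands for ACGTG, the core of the hypoxia response element, and for CACGTG, the E-box. The second always holds the first. The first was present in 11 of the 33 windows, or 33.3%, against 21.4% of all 35116 promoter windows of the same length, and the second in 4, or 12.1%, against 7.26%. The median log2 fold change was 0.25 for the 11 genes with an ACGTG and 0.25 for the 22 without. The windows are shown for the genes with the smallest p, PDK1, PDK2 and PGD, and for LDHA, which with PGK1 held the most separate sites, with each ACGTG or its reverse complement in capitals.
PDK1, chr2:172555123-172555422, plus strand: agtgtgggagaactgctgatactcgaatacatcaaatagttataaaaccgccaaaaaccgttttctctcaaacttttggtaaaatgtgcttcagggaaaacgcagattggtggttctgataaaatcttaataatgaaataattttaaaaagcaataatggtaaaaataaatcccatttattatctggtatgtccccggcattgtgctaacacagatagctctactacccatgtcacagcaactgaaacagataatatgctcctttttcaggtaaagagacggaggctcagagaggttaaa
PDK2, chr17:50094487-50094786, plus strand: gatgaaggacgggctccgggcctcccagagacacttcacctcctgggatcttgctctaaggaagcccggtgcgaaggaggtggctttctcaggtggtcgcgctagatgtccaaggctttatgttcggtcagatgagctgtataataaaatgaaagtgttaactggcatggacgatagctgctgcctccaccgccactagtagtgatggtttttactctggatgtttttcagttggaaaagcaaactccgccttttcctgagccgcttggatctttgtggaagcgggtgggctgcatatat
PGD, chr1:10398814-10399113, plus strand: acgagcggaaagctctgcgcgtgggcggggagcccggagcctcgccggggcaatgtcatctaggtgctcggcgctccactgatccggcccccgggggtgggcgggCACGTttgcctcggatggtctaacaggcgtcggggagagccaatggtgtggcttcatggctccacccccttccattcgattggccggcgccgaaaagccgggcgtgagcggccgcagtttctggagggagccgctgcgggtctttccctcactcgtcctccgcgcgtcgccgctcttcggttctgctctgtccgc
LDHA, chr11:18394313-18394612, plus strand: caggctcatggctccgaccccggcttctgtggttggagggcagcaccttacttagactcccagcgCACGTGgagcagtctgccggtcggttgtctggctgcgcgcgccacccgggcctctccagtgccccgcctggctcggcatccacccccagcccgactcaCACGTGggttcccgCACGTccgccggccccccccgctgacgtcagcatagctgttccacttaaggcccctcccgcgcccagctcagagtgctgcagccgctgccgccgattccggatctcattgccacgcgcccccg
The PDK1 and PDK2 windows held no match, PGD held 1 site and LDHA 3, of which 2 are E-boxes. Overlapping matches on the 2 strands were counted as 1 site, and PGK1 also held 3. The PDK1 window had 36.3% GC and the PDK2 window 51.3%, against 68.7% for PGD and 70.0% for LDHA. A match is a string of letters and not a measured site.

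Genes next to these in the pathway, from a list of 47 others, were tested in 42 cases. Of these 18 had a positive fitted difference, or 42.9% against 47.8% of all tested genes, and 24 a negative one. None passed (edgeR), and 3 were higher at an unadjusted p under 0.05, or 7.14% against 6.3% of all tested genes. At that threshold 0 were lower, against 4.52% of all tested genes. The shares of positive differences and of higher genes were near the background. The genes are given for their levels. PC, pyruvate carboxylase, which feeds pyruvate into the citric acid cycle as oxaloacetate, had 5.56, 7.58 and 7.27 CPM after relaxin-2, against 1.71, 4.30 and 5.19 CPM without it (log2 fold change 0.87 ± 0.35, edgeR adjusted p = 0.408). MLXIP, a glucose-sensing transcription factor also called MondoA, had 56.5, 71.0 and 65.1 CPM after relaxin-2, against 33.0, 52.4 and 54.9 CPM without it (0.46 ± 0.19, edgeR adjusted p = 0.408). The groups did not overlap in either gene, and untreated library 2 was the lowest in both. Without that library the log2 fold change of PC was 0.52 and that of MLXIP 0.26. With the GC and length offsets they were 0.53 and 0.16, and with 1 surrogate variable 0.23 and 0.099. The third was BSG, the chaperone of the lactate transporters, at 0.79 ± 0.33 with overlapping groups (edgeR adjusted p = 0.408), named after its value was seen. Its value was 0.46 without untreated library 2, 0.35 with the offsets and 0.15 with 1 surrogate variable. On the other side the smallest p belonged to MDH1, cytosolic malate dehydrogenase, at -0.15 ± 0.076 (edgeR adjusted p = 0.408) and ARRDC4, an arrestin that lowers glucose uptake and a target of MondoA, at -0.37 ± 0.20 (edgeR adjusted p = 0.411), and both gave overlapping groups. Without untreated library 2 the value of MDH1 was -0.094 and that of ARRDC4 -0.20. With the offsets they were -0.0076 and -0.24, and with 1 surrogate variable -0.045 and -0.13.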

How the data were processed

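Per the labels' protocols, TRIzol was used for extraction and a kit for stranded total RNA for the libraries. The authors deposited unnormalized read counts for each gene, as a table of each library and a merged one. The tables come from STAR on hg38, per the submitters' processing notes, whose STAR version was not given in the sources used here, nor was the annotation. The reverse-strand column was used, which held 17.8 to 19.8 times the forward reads. For all 24635 gene IDs shared with the merged table its counts were equal to that table's. The symbols of the 36 members stood on 39 merged lines, of which 2 had no counts and 1 was a repeat. Lines for reads without a gene were left out of library sizes: 6.73% to 17.4% unmapped, 5.31% to 27.0% multimapping, 17.5% to 32.0% outside exons of that strand and 2.36% to 4.18% ambiguous.

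The counts were filtered by edgeR's default, scaled by TMM and tested with edgeR 4.0.16's quasi-likelihood F test (R 4.3.3, two-sided, treatment as the only term, 6 libraries), and p-values were adjusted by Benjamini-Hochberg over 16740 genes. CPM are TMM-scaled, and standard errors are the log2 fold change over the square root of F. The median standard error was 0.14 for the members and 0.16 over all tested genes. Exon lengths, GC content (mean over a gene's transcripts, known for 99.6% of tested genes) and pseudogenes are from GENCODE 29 on GRCh38. Statistics are printed for the 16 members with the smallest p and 8 fixed ones, which made 20, and for the genes named in the neighbouring list. HKDC1 and SLC16A7, also from that list, are given by level only. The members and lists were chosen with earlier results of these data known.

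The closest libraries (relaxin-2 1 and untreated 4) had a chi-square of 2.65 per degree of freedom over genes, above sampling noise, so each library was 1 sample. Alternatives were DESeq2 1.42.0, RLE scaling, no filter, the merged table, unstranded counts, offsets for GC content and length (natural splines with 4 degrees of freedom), 1 surrogate variable (sva 3.50.0), the replicate number as a block, and each library left out in turn. Values of the neighbouring genes under other fits, and isozyme shares without untreated library 2, were added after seeing the data.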

Additional observations from a re-analysis of the deposited data

How the results depend on the processing

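Of the 20 members with printed statistics, 14 kept the sign of their log2 fold change under all 14 alternatives. Signs turned for ENO2 (-0.021) and PFKFB3 (-0.11) with the GC and length offsets, for PFKL (-0.027), TALDO1 (-0.0075) and PDHA1 (-0.015) with 1 surrogate variable, and for PDHA1 also without relaxin-2 replicate 3 (-0.016) or untreated replicate 2 (-0.0058, and its range when single libraries were left out was -0.016 to 0.030). LDHA, close to 0, turned to 0.10 with the offsets, 0.095 with 1 surrogate variable and 0.012 with unstranded counts, and ran from -0.073 to 0.060 when single libraries were left out. The cause was not tested.

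No member was called in 13 of the 14 alternatives, and 1 (PGD) was called with no filter on low counts. Over all genes 120 were called with no filter, 14 with 1 surrogate variable, 1 with the replicate block and, leaving out single libraries, 0 to 3. With no filter 32407 genes were tested. Members at an unadjusted p under 0.05 on the higher side numbered 9 with DESeq2, against 8.63% of all genes tested in that fit. They numbered 17 with no filter, against 8.5%, and 13 with the replicate block, against 14.7%. When single libraries were left out they numbered 2 to 12, against 1.21% to 13.6%. On the lower side there were 2 with the offsets, against 4.07%, and 0 with the replicate block, against 1.41%. When single libraries were left out there were 1 to 2, against 1.62% to 7.18%. The median log2 fold change of the members was 0.074 with the offsets, 0.026 with 1 surrogate variable, 0.39 with the replicate block, and 0.13 (without untreated replicate 2) to 0.33 (without untreated replicate 4) when single libraries were left out. In the block only the numbers 2 and 3 are shared by both groups. Its fitted differences therefore rest on those libraries, with little left to estimate variation. Deviations of same-numbered libraries correlated at -0.326 and 0.125 over genes, and those of differently numbered ones at -0.394 to 0.466. The same-numbered values lie inside that range, so they cannot tell whether the numbers pair the samples. The main fit did not treat them as pairs. Counts of 13 to 40 reads for PDK4 and 19 to 35 for ALDOC limit what could be seen in these genes.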
